A study of Mus musculus with 3 samples.

Results

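The 7 genes Kcna1, Kcna2, Kcna4, Kcns3, Kcnt1, Kcnk2 and Kcnk18, each of which codes for a potassium channel subunit, were followed through single cells of the mouse dorsal root ganglion (DRG). They were picked by symbol from the 31053 genes of the deposited tables, and all 7 were found. Lumbar DRGs of male C57BL/6J mice, 13 weeks old, were collected at levels L3 and L4 from both sides, and 8 DRGs from 2 mice were pooled for each library. There was 1 library of naïve mice, which had no treatment, 1 library taken 7 days after spared nerve injury (SNI) in both hind legs and 1 library taken 14 days after the same injury. In SNI, branches of the sciatic nerve are cut while another branch is left intact, so a ganglion holds both injured and spared neurons, and the share of fibres that come from L3 and L4 was not measured. As each condition had 1 library, no test was possible and no p-value is given. All 95% intervals cover counting error only and say nothing of the spread between mice or between dissociations.

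Potassium channels let potassium ions leave the cell and so bring the membrane back towards rest after an action potential. Voltage-gated Kv1 channels, built from alpha subunits such as Kcna1, Kcna2 and Kcna4, limit repetitive firing and sit beside the nodes of Ranvier of myelinated axons. Kcns3 cannot form a working channel alone and alters the channels of the Kv2 family it joins. Kcnt1 (Slack) codes for a channel that opens with intracellular sodium. Kcnk2 (TREK-1), which responds to stretch and heat, and Kcnk18 (TRESK), which responds to calcium through calcineurin, belong to the two-pore-domain family that carries leak current in sensory neurons.

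All 7 genes share the selectivity filter, the short loop that lets potassium pass. The coding bases of this loop are shown to compare the members. The bases alone do not tell the kind of channel, since Kcna2 and Kcns3 have the same filter codons. Each line gives 24 bases, 5′ to 3′ on the coding strand, with the 3 codons of the filter in capitals (glycine, then tyrosine or phenylalanine, then glycine). The bases were read from GENCODE vM21 transcripts on build GRCm38, and all lie in coding exons.
Kcna1: actgtgGGATACGGTgacatgtac
Kcna2: actgtaGGCTATGGAgacatggtt
Kcna4: actgtgGGCTATGGGgacatgaag
Kcns3: acagtgGGCTATGGAgacacccac
Kcnt1: actgtgGGCTTCGGTgatgtgacg
Kcnk2 pore 1: accataGGATTTGGAaacatctcc
Kcnk2 pore 2: accattGGATTTGGAgactacgtg
Kcnk18 pore 1: acagtgGGTTATGGCcacatgtac
Kcnk18 pore 2: accatcGGGTTTGGGgacatcgtg

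The 4 voltage-gated subunits each have 1 such loop with a tyrosine codon in the middle, and Kcnt1 has 1 loop with a phenylalanine codon. Kcnk2 and Kcnk18 each have 2 loops, as their family name says. Both Kcnk2 loops carry phenylalanine, whereas Kcnk18 carries tyrosine in the first and phenylalanine in the second. The loop lies at chr6:126642219-126642242 (minus strand, exon 1 of 1) in Kcna1, at chr3:107105224-107105247 (plus strand, exon 3 of 3) in Kcna2 and at chr2:107296495-107296518 (plus strand, exon 2 of 2) in Kcna4. It lies at chr12:11091566-11091589 (minus strand, exon 3 of 3) in Kcns3 and at chr2:25894367-25894390 (plus strand, exon 11 of 32) in Kcnt1. The first Kcnk2 loop spans an intron from chr1:189258882-189295600 (minus strand, starting in exon 3 of 7), and the second lies at chr1:189256572-189256595 in exon 5. Likewise, the first Kcnk18 loop spans an intron from chr19:59225533-59234826 (plus strand, starting in exon 2 of 3), and the second lies at chr19:59235427-59235450 in exon 3. Kcnk2 overlaps Pdcd5-ps and 2900042K21Rik on its own strand, so its counts carry some uncertainty.

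Of 9572 cells used, 500 passed a gate on 12 pan-neuronal markers: 130 in the naïve library, 223 at day 7 and 147 at day 14. The gated neurons differed greatly in depth. Their median was 59700 UMIs (unique molecular identifiers, each standing for 1 captured mRNA) in the naïve library, 2014 at day 7 and 78419 at day 14. Neurons with at least 10000 UMIs, called deep neurons here, numbered 107, 57 and 119. Snap25, a defining neuronal marker, was detected in 126 of 130, 136 of 223 and 142 of 147 gated cells, so many of the shallow day 7 cells lacked it. In a neuron-like cluster of 170 cells, 150 came from day 7 and the median was 1416 UMIs. Its leading genes included Serpinb1a, Asns and Sprr1a, which were not among the markers of neuron types, though Sprr1a is induced in axotomised neurons. Of the 12 pan-neuronal markers, 7 were found in at least 20% of its cells and at least 1.5-fold above other cells. In each other neuron cluster all 12 were. The main day 7 results are therefore also given for deep neurons. Between libraries, 1, 6 and 2 cell barcodes were shared (naïve with day 7, naïve with day 14, day 7 with day 14).

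The first comparison asked in which cells the channels were found. Levels are given in CPM, the UMIs of a gene summed over the cells of a class per 1000000 UMIs of all genes in those cells. The kit reads the 3′ end of each mRNA, so a UMI count is not divided by gene length. The name neuronal held for Kcnk18, Kcna4, Kcnt1 and Kcns3. Gated neurons held 183 of 185 Kcnk18 UMIs over all used cells (98.9%), 923 of 971 for Kcna4 (95.1%), 3816 of 4076 for Kcnt1 (93.6%) and 938 of 1064 for Kcns3 (88.2%). For Kcnk2 the neuronal portion was 914 of 1842 UMIs (49.6%). It did not hold for Kcna1 and Kcna2, for which neurons held only 846 of 33015 UMIs (2.56%) and 2847 of 19383 UMIs (14.7%). Most Kcna1 UMIs, 23371 or 70.8%, were in myelinating Schwann-like cells.

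In every library Kcna1 levels were far higher in glia than in neurons, and Kcna2 levels were higher in glia than in all neurons together. Single neuron types, given below, came closer to satellite glia-like cells for Kcna2. Kcna1 stood at 20.9 CPM in naïve neurons, 38.1 CPM at day 7 and 32.8 CPM at day 14. In myelinating Schwann-like cells, Kcna1 stood at 1371, 1751 and 1516 CPM in the same order, and it was detected in 1223 of 1344, 1094 of 1123 and 1572 of 1617 of these cells. Non-myelinating Schwann-like cells had 2375, 2038 and 1806 CPM, and satellite glia-like cells, which wrap the neuron cell body, had 270, 345 and 377 CPM. The order of the 3 glial classes was the same in all 3 libraries, and their intervals did not overlap. Kcna2 showed the same order, with 113, 96.5 and 98.1 CPM in neurons, 242, 299 and 392 CPM in satellite glia-like cells, 578, 604 and 677 CPM in myelinating and 1479, 1536 and 1344 CPM in non-myelinating Schwann-like cells. Endothelial, mural and immune-like cells were taken as 1 set of non-neural cells, in which free RNA can also be counted. In it Kcna1 had 9.96, 34.1 and 25.8 CPM and Kcna2 had 13.9, 21.2 and 25.8 CPM. On the CPM scale, the Kcna1 intervals of neurons and non-neural cells overlapped at days 7 and 14, while Kcna2 was higher in neurons throughout. Counted per cell, Kcna1 stood at 1.37, 1.13 and 2.83 UMIs in a neuron and 0.0466, 0.20 and 0.15 UMIs in a non-neural cell, which holds far fewer UMIs in all.

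The other members had narrower sites outside neurons. Kcnk2 reached 156, 166 and 145 CPM in fibroblast-like cells, where 28 of 85, 27 of 71 and 60 of 174 cells had a UMI. It reached 52.8, 46.5 and 34.9 CPM in satellite glia-like cells, against 0.796, 1.15 and 1.38 CPM in vascular or immune-like cells. Fibroblast-like cells therefore had a higher Kcnk2 level than all neurons together in each library. Kcnt1 was found in pericyte or smooth muscle-like cells at 56.9, 67.8 and 64.7 CPM. Kcns3 was found there at 11.9, 20.6 and 25.6 CPM. Kcna4 did not exceed 1.80 CPM in satellite glia-like and myelinating Schwann-like cells. Kcnk18 had 0 UMIs in satellite glia-like cells in each library, in 769, 485 and 709 cells.

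**Figure D1:**
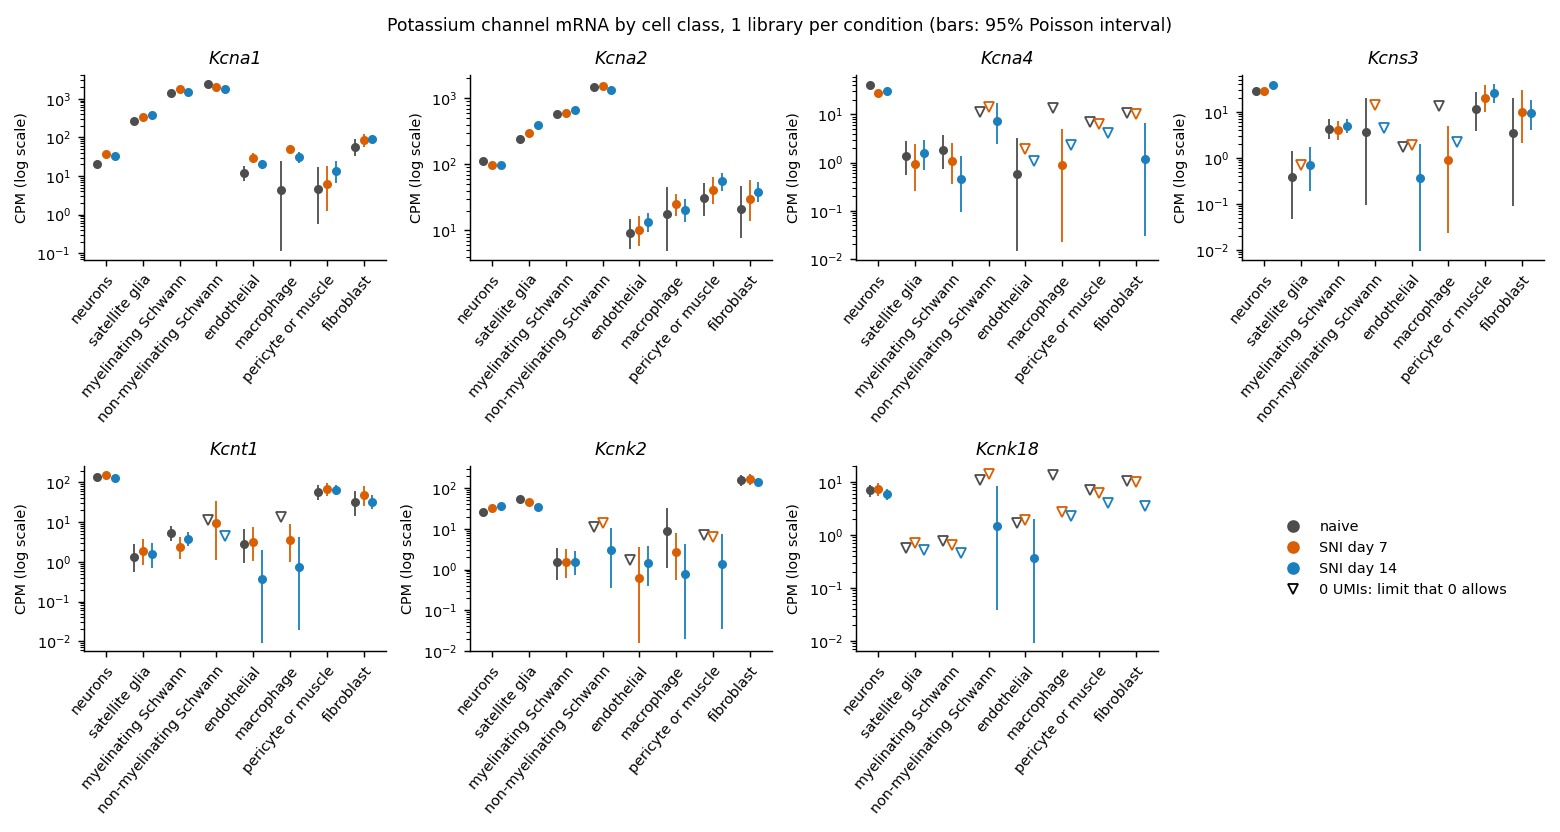
Level of each gene in CPM (vertical axis) by cell class, with 1 point for each library (naïve, day 7, day 14) and bars for the exact 95% Poisson interval. Kcna1 and Kcna2 stand highest in Schwann-like cells, while Kcna4, Kcnt1 and Kcnk18 stand highest in neurons.

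Neurons were sorted into 5 types by their marker genes: Nefh-type (large myelinated neurons), Mrgprd-type (non-peptidergic nociceptors), Tac1-type (peptidergic nociceptors), Th-type (low-threshold C-fibre mechanoreceptors) and Sst-type (itch-related neurons). In the order naïve, day 7 and day 14, there were 12, 7 and 18 Nefh-type neurons, 40, 56 and 25 Mrgprd-type, 25, 16 and 39 Tac1-type, 30, 10 and 13 Th-type, and 7, 4 and 17 Sst-type. A further 16, 130 and 35 neurons remained untyped. The types were cut from marker scores and are ranges rather than sharp classes. The channels themselves were not used in the sorting.

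Among the Kv1 alpha subunits, Kcna1 was highest in Nefh-type neurons, with 51.9 CPM in the naïve library, 74.7 CPM at day 7 and 105 CPM at day 14. Th-type neurons followed with 32.7, 48.7 and 64.1 CPM, and the intervals of these neighbours overlapped in the naïve and day 7 libraries. Tac1-type neurons were lowest, with 10.2, 13.8 and 10.7 CPM. Kcna2, the usual partner of Kcna1 in the axon, was high in the same types. It stood at 224, 143 and 132 CPM in Nefh-type and 214, 192 and 232 CPM in Th-type neurons, and the order of the pair differed between libraries. Mrgprd-type neurons had 62.4, 91.0 and 96.4 CPM of Kcna2, and Tac1-type neurons had 78.5, 76.8 and 69.8 CPM. Sst-type neurons had the lowest Kcna2 level, 10.4, 51.8 and 41.1 CPM, from 6, 24 and 65 UMIs. Kcna4, whose channels inactivate quickly, was a Th-type gene. It stood at 75.8, 108 and 92.4 CPM in Th-type neurons, and all 10 and all 13 of these cells had a UMI at days 7 and 14. No other type exceeded 35.8 CPM of Kcna4 in any library.

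Kcns3 was nearly missing from Th-type neurons, where 1, 3 and 1 UMIs were counted, corresponding to 0.436, 3.25 and 0.674 CPM. It was high in Tac1-type neurons, at 75.4, 79.8 and 69.5 CPM. Sst-type neurons had 58.9, 36.7 and 46.8 CPM and Mrgprd-type neurons had 23.9, 23.1 and 22.6 CPM of Kcns3. In Nefh-type neurons the level was 80.2 CPM in the naïve library, 3.11 CPM at day 7 and 70.3 CPM at day 14. The day 7 value came from 1 UMI in 7 cells. The pattern of Kcns3 across Th-type and Tac1-type neurons was therefore opposite to that of Kcna4.

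Kcnt1, the sodium-activated channel, was highest in Mrgprd-type neurons, at 241, 300.2 and 280 CPM. It was detected in 38 of 40, 38 of 56 and 23 of 25 of these cells. Sst-type neurons followed with 100.4, 171 and 128 CPM, and Tac1-type neurons had 72.4, 58.3 and 80.1 CPM. Nefh-type neurons had 35.4 CPM in the naïve library, 0 UMIs at day 7 (which allows up to 9.34 CPM) and 23.7 CPM at day 14. The Mrgprd-type level lay above that of every other type in each library, without overlap of the intervals.

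The two-pore-domain channels were split between the nociceptor types. Kcnk2 was highest in Tac1-type neurons, at 163, 147 and 112 CPM, and was detected in 17 of 25, 14 of 16 and 31 of 39 cells. In Mrgprd-type neurons it had 4, 0 and 7 UMIs (1.05 CPM, 0 and 2.03 CPM), and in Th-type neurons 0, 0 and 3 UMIs. Kcnk18, on the other hand, was highest in Mrgprd-type neurons, at 13.4, 13.4 and 11.9 CPM, where 18 of 40, 11 of 56 and 16 of 25 cells had a UMI. Of the 183 Kcnk18 UMIs in neurons, 51, 33 and 41 were in this type. Th-type neurons had 0, 1 and 0 Kcnk18 UMIs. The pair was thus found in largely different nociceptors, at levels that were steady over the 3 libraries for Kcnk18 and lower at day 14 for Kcnk2.

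**Figure D2:**
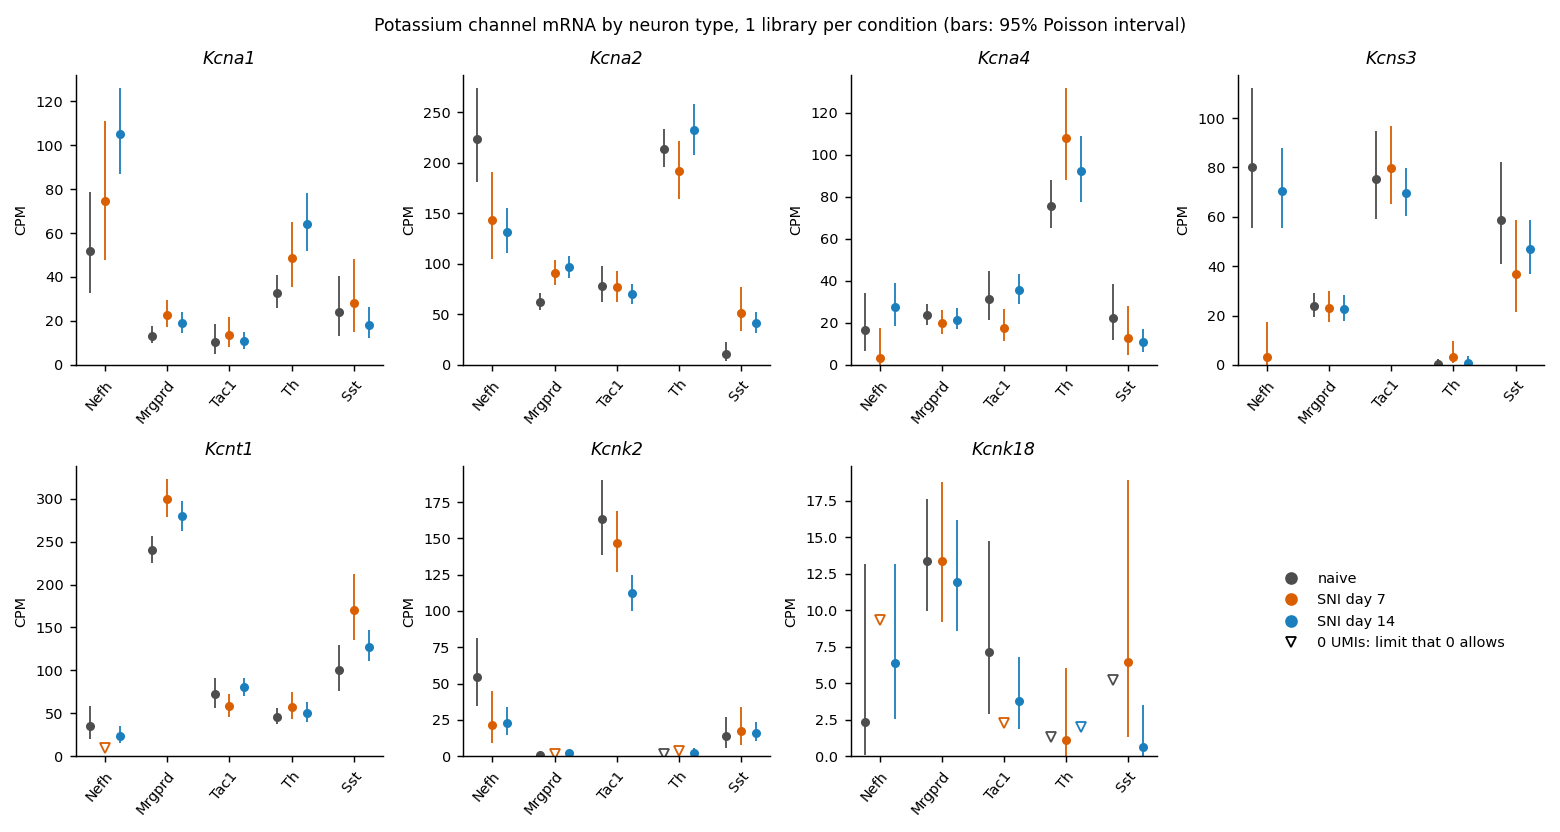
Level of each gene in CPM (vertical axis, summed over the cells of a type) in 5 neuron types, with 1 point for each library and bars for the exact 95% Poisson interval. Kcnt1 and Kcnk18 peak in Mrgprd-type, Kcnk2 in Tac1-type and Kcna4 in Th-type neurons, and Kcns3 is close to 0 in Th-type neurons.

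The second comparison asked whether the channels differed between injured and naïve libraries in all gated neurons. None of the 7 members changed by at least 2-fold at day 7, where 6.22% of 12598 genes with at least 20 UMIs did, or at day 14, where 8.32% of 13267 did. The median log2 ratio of the members was 0.10 at day 7 and -0.12 at day 14, and that of all genes was 0.03 and 0.09. Over the same comparisons, all 10 injury genes of the list (Atf3, Sprr1a, Sox11, Gal, Gap43, Ecel1, Flrt3, Csf1, Npy and Jun) were at least 2-fold higher at both times.

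Of the Kv1 subunits, Kcna1 was higher by a log2 ratio of 0.87 (95% interval 0.58 to 1.15) at day 7 and 0.65 (0.39 to 0.91) at day 14. The counts behind the ratios were 178, 252 and 416 UMIs. Kcna2 was slightly lower, with -0.23 (-0.38 to -0.09) and -0.21 (-0.33 to -0.09), from 965, 638 and 1244 UMIs. Kcna4 stood at 40.4, 28.4 and 30.8 CPM, log2 ratios of -0.51 (-0.77 to -0.25) and -0.39 (-0.60 to -0.18). Its direction was not stable, since the day 7 value became 0.06 when neurons were thinned to 5000 UMIs and the day 14 value became 0.14 with equal weight for each type. In Th-type neurons, where Kcna4 is concentrated, the log2 ratio was 0.51 (0.14 to 0.88) and 0.28 (-0.05 to 0.62), and this type made up 30 of 130, 10 of 223 and 13 of 147 neurons. Kcna4 UMIs were found in 90 of 130, 45 of 223 and 93 of 147 neurons. After each neuron was thinned to 5000 UMIs, 19.0%, 16.2% and 13.7% of the 112, 70 and 127 neurons that reached this depth had one.

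Kcns3 stood at 29.0, 29.0 and 39.4 CPM, log2 ratios of 0.00 (-0.28 to 0.28) and 0.44 (0.22 to 0.66), which became -0.71 and -0.19 with equal weight for each type. Kcnt1 stood at 140, 151 and 128 CPM, with 0.12 (-0.01 to 0.24) and -0.12 (-0.23 to -0.01), and 0.24 and 0.18 with that weight. Kcnk2 stood at 26.2, 33.3 and 37.1 CPM, with 0.34 (0.07 to 0.62) and 0.50 (0.27 to 0.74). In Tac1-type neurons, where Kcnk2 is concentrated, it was lower at day 14 by a log2 ratio of -0.54 (-0.82 to -0.26), and this type made up 25 of 130, 16 of 223 and 39 of 147 neurons. With equal weight for each type, the Kcnk2 log2 ratio was -0.32 at day 7 and -0.59 at day 14. Kcnk18 had 59, 49 and 75 UMIs (6.93, 7.41 and 5.91 CPM), and its intervals of -0.48 to 0.67 and -0.74 to 0.29 held 0 at both times.

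Within types that had at least 10 neurons on both sides, Kcna1 was mostly higher. The log2 ratio was 0.76 and 0.50 in Mrgprd-type neurons, 0.58 and 0.97 in Th-type neurons (day 7 and day 14) and 1.02 (0.35 to 1.75) in Nefh-type neurons at day 14. The Mrgprd-type interval at day 14, -0.05 to 1.05, held 0, and in deep Mrgprd-type neurons the levels were 13.2 CPM in the naïve library and 16.8 CPM at day 7. In Tac1-type neurons the log2 ratio was 0.44 and 0.06, and both intervals held 0. The Nefh-type value, from 115 against 22 UMIs, was the only Kcna1 ratio past 2-fold in these types. In that comparison 11.2% of 8257 genes were past it. A single day 14 neuron of 198200 UMIs, at 232 CPM, held a large part of the 115 UMIs, and the ratio without it was not tested. Kcnk2 was lower in Nefh-type neurons at day 14, at 22.8 against 54.2 CPM and a log2 ratio of -1.25 (-2.12 to -0.36). The counts were 25 against 23 UMIs. The naïve level rested mostly on single neurons at 162 and 149 CPM (of 55695 and 53776 UMIs), and the ratio without them was not tested. In Mrgprd-type and Tac1-type neurons, 0 of 6 members past the count minimum were 2-fold changed at either time, beside 3.74% and 3.43% of genes in Mrgprd-type and 6.21% and 6.59% in Tac1-type neurons. In Th-type neurons 0 of 4 were, beside 4.3% and 4.8% of genes.

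The Kcna1 difference was set beside the depth of the neurons and their glial RNA, since Kcna1 is abundant in Schwann-like cells. Shallow neurons of day 7 carried 203 CPM of Kcna1, and the summed markers of myelinating Schwann-like cells stood at 8585 CPM in them against 925 CPM in deep neurons of the same library. Among deep neurons, Kcna1 remained higher at day 7 by a log2 ratio of 0.44 and counted 1.65, 3.12 and 3.47 UMIs per neuron in the 3 libraries. In these deep neurons the summed satellite glia markers stood at 873, 1191 and 1117 CPM. Those of myelinating Schwann-like cells stood at 1051, 925 and 967 CPM. In the non-neural cells Kcna1 was also higher, by log2 ratios of 1.78 (1.15 to 2.46) and 1.37 (0.75 to 2.05), to 0.20 and 0.15 UMIs per cell from 0.0466. The summed level of the 6 markers of myelinating Schwann-like cells in all gated neurons was 1054, 1347 and 967 CPM, and that of the 6 satellite glia markers was 881, 1362 and 1141 CPM, with no marker at 0. The part of glial RNA in the Kcna1 difference was not tested.

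In the glia themselves the levels also differed between libraries. Kcna1 was higher in satellite glia-like cells by log2 ratios of 0.36 (0.25 to 0.46) at day 7 and 0.48 (0.39 to 0.58) at day 14. Kcna2 was higher there by 0.31 (0.19 to 0.42) and 0.70 (0.60 to 0.80), whereas Kcnk2 was lower by day 14 with -0.60 (-0.87 to -0.33). The make-up of this class also differed. A cluster led by Cxcl10, Ifit3b and Isg15 gave 155, 33 and 27 of its 769, 485 and 709 cells, and the ratios without it were not tested. In non-myelinating Schwann-like cells, Kcna1 was lower, with -0.22 (-0.40 to -0.04) and -0.40 (-0.53 to -0.25). A cluster led by Tnc, Btc and Timp1 gave 8, 6 and 50 of the 143, 87 and 188 cells of this class. The ratio without that cluster was not tested. In myelinating Schwann-like cells, Kcna1 had log2 ratios of 0.35 and 0.15, and Kcna2 of 0.06 and 0.23.

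The third comparison was made within a library, between neurons that had Atf3 and Sprr1a together at 100 CPM or more and the remaining neurons. Atf3 and Sprr1a are induced in axotomised neurons, and cells of 1 library share their preparation, though they are not replicates. Such neurons numbered 3 in the naïve library, 131 at day 7 and 35 at day 14, of which 2, 13 and 30 were deep. In a neuron of 10000 UMIs or fewer, 1 UMI of Atf3 or Sprr1a is enough to reach 100 CPM. At day 7 the median was 1791 UMIs in the 131 neurons and 5974 UMIs in the others. In this comparison most members differed by at least 2-fold, between sets that also differed in neuron type. At day 7, 5 of the 7 were at least 2-fold lower, beside 11% of 11364 genes, and 1 was at least 2-fold higher, beside 9.91%. At day 14, 4 of the 7 were lower, beside 9.64% of 12550 genes, and 1 was higher, beside 6.97%. The higher member was Kcna1 at both times. Among deep neurons alone, 5 were lower at day 7 (beside 13.6%) and 0 higher (beside 9.77%), and 4 were lower (beside 9.82%) and 1 higher (beside 6.93%) at day 14.

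Kcnt1 and Kcnk18 were lower at both times. In deep neurons Kcnt1 stood at 15.4 CPM with Atf3 or Sprr1a and 180 CPM without at day 7, and at 29.5 against 161 CPM at day 14. The log2 ratios were -3.55 (-4.31 to -2.88) and -2.45 (-2.77 to -2.14). The median of single deep neurons was 10.5 against 83.2 CPM at day 7 and 11.1 against 101 CPM at day 14, although single cells of the sets overlapped. Kcnk18 had 0 UMIs in 13 deep neurons at day 7 (which allows up to 2.57 CPM) against 48 UMIs and 9.46 CPM in the other 44. At day 14 it had 1 UMI in 30 neurons against 74 UMIs in 89 neurons, a log2 ratio of -4.59 (-9.91 to -2.06). Kcnk18 was seen in 14 of 44 and 23 of 89 of the other deep neurons, so most deep neurons lacked a Kcnk18 UMI with or without the injury genes.

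The Kv1 subunits divided. Kcna2 in deep neurons stood at 29.9 against 109 CPM at day 7 and 48.6 against 114 CPM at day 14, with log2 ratios of -1.87 (-2.40 to -1.37) and -1.23 (-1.49 to -0.98). Kcna4 stood at 4.28 against 33.5 CPM (-2.97, -4.61 to -1.72) and 13.3 against 36.6 CPM (-1.46, -1.97 to -0.99). Kcna1 went the other way, at 47.9 against 24.03 CPM at day 7 (0.99, 0.51 to 1.46) and 56.4 against 25.2 CPM at day 14 (1.16, 0.87 to 1.45). It was detected in 11 of 13 and 29 of 30 deep neurons with Atf3 or Sprr1a, against 30 of 44 and 58 of 89 of the others. At day 14, a single Nefh-type neuron of 198200 UMIs among the 30 stood at 232 CPM. In these deep sets the summed markers of myelinating Schwann-like cells stood at 719 against 973 CPM at day 7 and 989 against 960 CPM at day 14. In all gated neurons of day 7 they stood at 2266 against 1091 CPM, and 5 of the 6 were at least 2-fold higher. The Kcna1 ratio in that wider set was 1.47 (1.10 to 1.84). The summed markers of satellite glia, which also carry Kcna1, stood in the deep sets at 1759 against 1060 CPM at day 7, where 1 of the 6 (Glul) was at least 2-fold higher, and at 1192 against 1093 CPM at day 14. The part of glial RNA in this Kcna1 difference was not tested.

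Kcns3 was lower at day 7, with 8.55 against 33.9 CPM in deep neurons and a log2 ratio of -1.99 (-3.07 to -1.07), and less so at day 14, with 25.3 against 44.1 CPM and -0.80 (-1.17 to -0.45). Kcnk2 differed little. It stood at 29.1 against 36.2 CPM at day 7 and 35.7 against 37.4 CPM at day 14, with intervals of -0.89 to 0.22 and -0.39 to 0.24 around log2 ratios of -0.32 and -0.07. The pooled sets at either time thus had Kcnk2 levels within 2-fold of each other, up to counting error. However, the day 7 value with Atf3 or Sprr1a rested mostly on 1 Tac1-type neuron of 110911 UMIs, at 189 CPM. At day 14 an untyped neuron with Atf3 or Sprr1a stood at 288 CPM. By type at day 14, the Kcnk2 log2 ratio was -1.64 in Tac1-type and 1.53 in Nefh-type neurons. The Nefh-type level with Atf3 or Sprr1a rested mostly on neurons at 87.0 and 35.3 CPM.

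**Figure D3:**
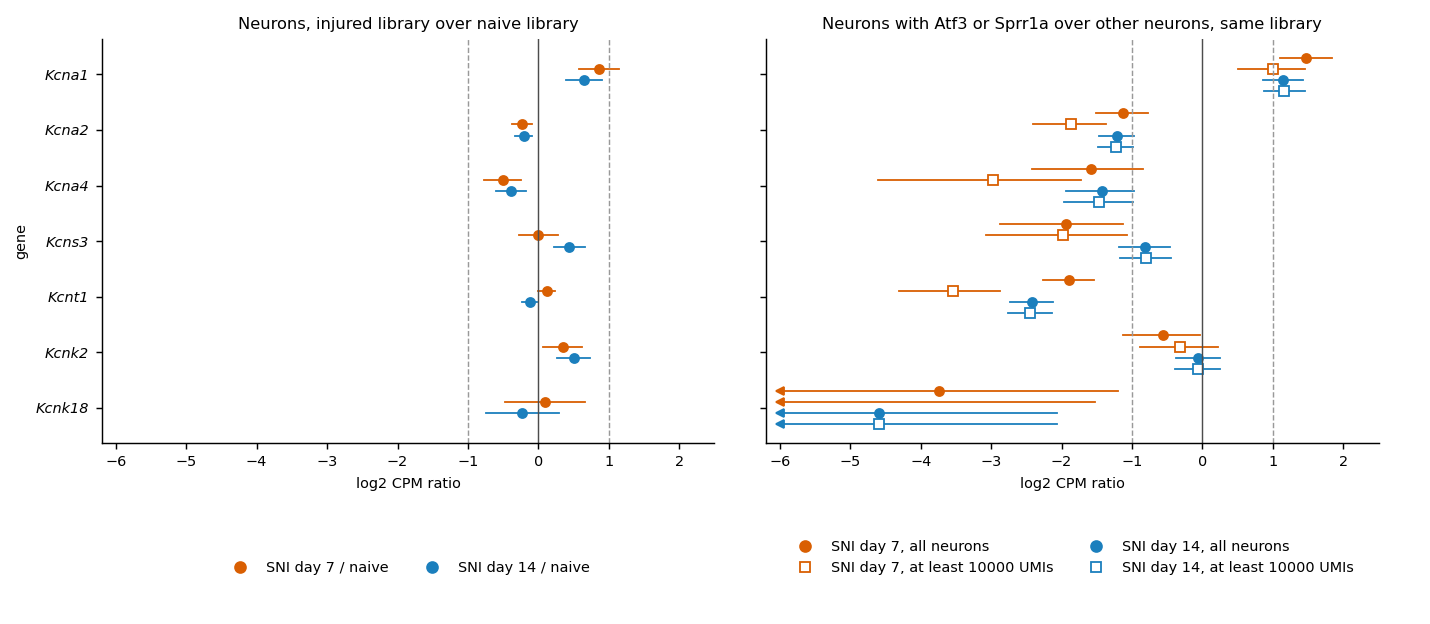
Log2 CPM ratio of each gene (horizontal axis, with bars for the exact 95% interval) for injured over naïve libraries in all neurons and for neurons with Atf3 or Sprr1a over other neurons of the same library. The library ratios lie within 2-fold, whereas Kcnt1 and Kcnk18 lie far below 0 and Kcna1 above 0 in the within-library comparison.

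**Figure D4:**
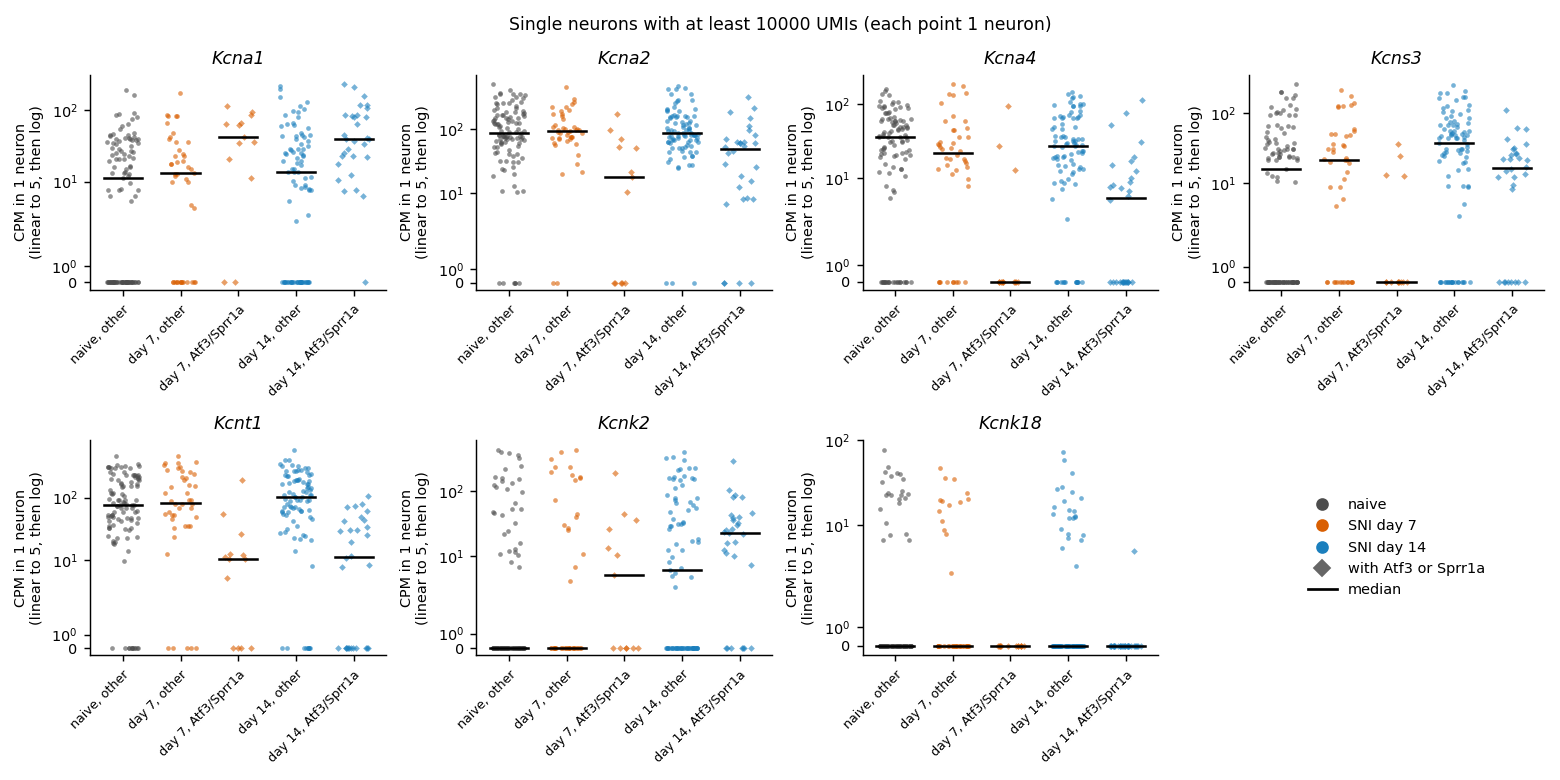
CPM of each gene in single neurons with at least 10000 UMIs (vertical axis, linear to 5 and then log), by library and by the presence of Atf3 or Sprr1a, with the median as a line. Kcnt1 medians are 10.5 and 11.1 CPM with Atf3 or Sprr1a against 83.2 and 101 CPM without, and Kcna1 medians are 42.4 and 39.9 CPM against 13.2 and 13.5 CPM.

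The neuron types were unevenly placed in this comparison, and type markers were lower together with the channels. In deep neurons, the summed Mrgprd-type markers stood at 149 against 1509 CPM at day 7 and 121 against 1363 CPM at day 14, and 5 of the 5 that passed the count minimum were at least 2-fold lower at both times. Tac1-type markers stood at 1207 against 2976 CPM and 1035 against 3446 CPM. At day 14, 0 of the 35 neurons with Atf3 or Sprr1a were placed in the Mrgprd type, to which most Kcnt1 and Kcnk18 UMIs belong. A loss of these channels within a type and a lower portion of that type among the neurons with Atf3 or Sprr1a cannot be told apart in the pooled sets.

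The comparison could be made within 3 types. In Tac1-type neurons at day 14 (7 against 32 cells), 4 of 6 members were lower, beside 11.7% of 9991 genes, and Kcna1 was higher, beside 4.74%. Kcnt1 stood at 29.0 against 93.9 CPM (-1.69), Kcnk2 at 42.0 against 131 CPM (-1.64), Kcns3 at 30.7 against 80.0 CPM (-1.38) and Kcna4 at 16.1 against 41.1 CPM (-1.35). Kcna1 stood at 38.7 against 3.06 CPM, from 24 and 7 UMIs. In Nefh-type neurons at day 14 (6 against 12 cells), 2 of 6 were lower, beside 15.4% of 7138 genes, and 1 was higher, beside 9.25%. Kcna2 there had 9 against 135 UMIs and a log2 ratio of -2.96 (-4.12 to -1.99), and Kcnt1 had 0 against 26 UMIs. Kcnk2 was the higher one, with 15 against 10 UMIs and a log2 ratio of 1.53 (0.28 to 2.85). Its level with Atf3 or Sprr1a rested mostly on neurons at 87.0 and 35.3 CPM. Kcna1 was within 2-fold there, and the 3 deep neurons with Atf3 or Sprr1a stood at 232, 86.3 and 12.4 CPM. The Kcna1 ratio without the neuron at 232 CPM was not tested. In Mrgprd-type neurons at day 7 (29 against 27 cells) shallow cells were set against deeper ones, since 1 of the 29 and 14 of the 27 were deep and the 29 held 118240 UMIs in all. In such shallow cells 1 UMI of Atf3 or Sprr1a is enough to reach the limit of 100 CPM. No member was called lower, beside 9.89% of 8563 genes, but Kcns3 (0 against 57 UMIs) and Kcnk18 (0 against 33 UMIs) could not have been called at this depth. Kcnt1 stood at 330 against 299 CPM (0.14, -0.36 to 0.61) and Kcna2 at 169 against 87.1 CPM (0.96), while Kcna1 was higher, from 14 against 42 UMIs, at 118 against 17.8 CPM (2.73, beside 12.7%). The Kcnt1 value of the 29 neurons rested on 39 UMIs, against 703 in the others.

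Neurons of the injured libraries below the limit on Atf3 and Sprr1a were also set against naïve neurons below it. In this setting, chosen after the data were seen, 0 of 7 members were 2-fold changed at day 7 and at day 14, where 3.49% and 5.85% of genes were. The log2 ratio of Kcna1 to the naïve library was 0.50 and 0.38, that of Kcnt1 0.35 and 0.18 and that of Kcna2 -0.07 and -0.01. For Kcns3 it was 0.24 and 0.58 (0.35 to 0.81 at day 14), and for Kcnk2 0.44 and 0.51 (0.27 to 0.76 at day 14). These neurons were not equal to naïve ones in other genes, as Sprr1a itself was at least 2-fold higher at day 7 and the summed Tac1-type markers stood at 1333, 2951 and 3457 CPM in the naïve, day 7 and day 14 libraries. The choice of the limit on Atf3 and Sprr1a also mattered. When 1 UMI of either gene was enough, the number of members past 2-fold dropped from 6 to 3 at day 7 and from 5 to 0 at day 14.

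Other potassium channel genes were counted in the same way. Of 64 other pore-forming subunits, 36 and 43 passed the count minimum in the within-library comparison at days 7 and 14. Of these, 15 and 21 were at least 2-fold lower and 3 and 2 were higher in neurons with Atf3 or Sprr1a, with median log2 ratios of -0.85 and -0.86. The median over all genes was 0.03 and -0.01, and 11% and 9.64% of all genes were lower and 9.91% and 6.97% higher. In deep neurons, 18 and 19 of these subunits were lower and 3 and 2 higher. Subunits lower at both times included Kcnb2 (a Kv2 channel, a partner of Kcns3), Kcnd1 and Kcnd3 (Kv4 channels) and Kcnj3 (a G protein-gated inward rectifier). Kcnq3, which forms M-current channels, and Kcnk16 were higher at both times. Of the 11 auxiliary subunits that passed, 7 and 6 were lower, among them Kcnab1 (a beta subunit of Kv1 channels) and Kcnip4 (a partner of Kv4 channels), and Kcnmb4 was higher (8 and 6 lower in deep neurons). Of the 13 genes listed as juxtaparanode partners, 4 and 3 were lower and 1 and 2 higher (3 and 3, and 1 and 1, in deep neurons). Not all of the 13 hold Kv1 channels beside the node. Of the regulators known to silence potassium channel genes, 5 and 6 passed the count minimum and 0 were lower. Higher were 2 of 5 at day 7 (Ezh2 and Rest) and 1 of 6 at day 14 (Ezh2). Their counts were low, with 35 UMIs of Ezh2 and 48 of Rest in all day 7 neurons.

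In the comparison of libraries, of the other pore-forming subunits, 5 of 45 were lower and 3 higher at day 7, and 3 of 47 were lower and 6 higher at day 14. Together these were 17.8% and 19.1%, beside 6.22% and 8.32% of all genes. Kcng1 (a silent subunit) stood at 0.470, 2.42 and 2.68 CPM, Kcnn4 (a calcium-activated channel) at 2.35, 5.45 and 6.23 CPM, and Kcnk16 at 1.06, 3.48 and 8.20 CPM in the naïve, day 7 and day 14 libraries. Kcnn3 (a small-conductance calcium-activated channel) stood at 5.99, 2.42 and 2.29 CPM and Kcnj4 (an inward rectifier) at 5.52, 1.82 and 2.13 CPM. All 5 were past 2-fold at both times, but their levels were low. Of the auxiliary subunits, 0 and 2 of 11 were lower and 0 higher. The juxtaparanode partners gave 1 higher gene (Lgi3) at day 14, and 0 of 6 silencing regulators passed 2-fold at either time.

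Promoter windows from RefSeq (build GRCm38.p6, 250 bases before to 50 after a start) were found for 5 of the 7 genes, 9 windows in all. They were searched on both strands for TGANTCA, the motif of AP-1 factors such as Jun, and for TGACGTCA, the cyclic AMP response element to which ATF factors can bind. These motifs occur in 7.81% and 1.79% of 32851 windows. Only 1 window of Kcnk2 held the first and no window held the second. The match, in capitals, lies 126 bases before that start site, in chr1:189344300-189344330 (minus strand).
Kcnk2 window: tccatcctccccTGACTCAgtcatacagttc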

How the data were processed

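Dissociated lumbar DRG cells were profiled with 10x Genomics 3′ chemistry (version 3). The authors deposited, per library, UMI counts per gene and cell, which are whole counts with no normalization, per the file headers and labels made with Cell Ranger 3.0.2 on mm10. The annotation version is not given in the sources used here. The paper's methods describe no processing for these cells. Every per-sample column was used (0 left out). The libraries held 3748, 3281 and 4908 barcodes and 23107376, 22343246 and 36550911 UMIs (naïve, day 7, day 14).

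Cells were required to have 500 or more detected genes and a mitochondrial portion of 20% or less, and 29, 32 and 29 doublets called by Scrublet (scanpy 1.11.5, rate of 5%) were left out. Non-neuronal classes came from clusters (2000 variable genes, 30 components, 15 neighbours, leidenalg 0.10.2 at resolution 1) named after markers, which need not match the authors' own classes. A neuron had at least 4 of 12 pan-neuronal markers and at least 3000 CPM of them. This limit was set after the gap in their distribution was seen, and 2, 10 and 4 neurons lay within 2-fold of it. A type needed at least 3 markers and a lead of 0.5 SD (log2 CPM with a pseudocount of 50). Cells within 2-fold of the limit of 100 CPM on Atf3 and Sprr1a numbered 5, 6 and 4.

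CPM came from summed UMIs, with exact 95% Poisson intervals. Ratios had exact conditional binomial intervals (scipy 1.17.1), and genes needed at least 20 UMIs over both sides. A count of 0 allows up to 3 counts. edgeR 4.0.16 and DESeq2 1.42.0 gave only alternative scaling factors. Code was tested on simulated data. Named in the text are all members and, of the other lists, genes past 2-fold in the same direction at both times with at least 50 UMIs, at most 4 per list and direction. Genes named as lower or higher in the within-library comparison were chosen after their values were seen. Some genes that met these rules are not reported here. The members and lists were chosen with earlier results of these data known.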

Additional observations from a re-analysis of the deposited data

Results flagged for a closer look

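Kcna2 differed in direction between neuron types. In Nefh-type neurons the log2 ratio to the naïve library was -0.64 at day 7 and -0.77 at day 14. In Mrgprd-type neurons it was 0.54 and 0.63, and in Sst-type neurons 2.32 and 1.98. The difference between types was not tested, since each type had 1 library per condition. The Nefh-type value at day 7 rested on 7 neurons, and the Sst-type values rested on 7 naïve neurons with 6 Kcna2 UMIs and on 4 and 17 neurons at days 7 and 14. Kcna2 was flagged because its intervals in both injured libraries were wholly positive in some types and wholly negative in another. The Mrgprd-type and Nefh-type intervals at day 14, 0.38 to 0.87 and -1.15 to -0.38, therefore could not overlap. They cover counting error alone.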

How the results depend on the processing

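No paired analysis was possible because the labels give a single library to every condition. The count of members past 2-fold at day 7 over naïve was 0, and it was 1 (Kcna1, log2 ratio 3.31) when each cell had the same weight. The count at day 14 over naïve kept its value of 0 in the alternatives run. For neurons with Atf3 or Sprr1a at day 7, the count of 6 became 3 with at least 1 UMI of either gene, 2 with each cell weighted equally and 1 in Mrgprd-type neurons. At day 14, the count of 5 became 0 with at least 1 UMI and 3 in Nefh-type neurons. At day 7, Kcna2 and Kcnk18 turned to log2 ratios of 0.19 and 0.41 with each cell weighted equally, and in Mrgprd-type neurons Kcna2, Kcna4 and Kcnt1 turned to 0.96, 0.82 and 0.14. The cause was not tested. Gates of 1000 CPM and settings by type were chosen after seeing the data. Depth limits Kcnk18, with 183 UMIs in neurons, and all day 7 values in shallow cells.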

Other observations

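The members were often found together in deep neurons. The median deep neuron had UMIs of 4 members in the naïve library and 5 in each injured library, and all 7 were seen in 2, 1 and 9 cells. Such counts grow with depth.

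Genes with patterns most like those of the members were sought over 12 groups (neuron type by library, at least 10 cells each), among 9653 genes with at least 200 neuronal UMIs, by Pearson's r of log2(CPM + 10). The groups share libraries and types, so r is a description. The closest gene to Kcna1 was Slc25a33 (0.94), followed by Scn8a (0.93), which codes for a sodium channel of the node, and Crim1 (0.92). For Kcna2 they were Ola1 (0.96), Pgbd5 (0.95) and Susd2 (0.95), and for Kcna4 Aig1 (0.96), Tnfrsf11a (0.96) and Fst (0.95). Among the genes closest to Kcns3 were Dap (0.98) and Map1b (0.97). Kcnt1 lay closest to Dync1i2 (0.99) and to the G protein subunits Gnaq (0.99) and Gnao1 (0.98). Kcnk2 was matched by Mgat5b (0.99), Tgfa (0.99) and Arhgap15 (0.99), and Kcnk18, with its low counts, by Dcaf4 (0.96), Tmem51 (0.93) and Sdhaf4 (0.91).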
